A study of Mus musculus with 9 samples.

Results

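The MHC class I presentation genes described here are 10 genes chosen by symbol: the class I heavy chains H2-K1 and H2-D1, the light chain B2m, the peptide transporter subunits Tap1 and Tap2, the loading factor Tapbp (tapasin), the immunoproteasome subunits Psmb8, Psmb9 and Psmb10, and the transactivator Nlrc5. All 10 were present in both deposited tables, among 16367 genes in the table of sorted retinal cells and among 17035 genes in the table of primary cultures. All 10 also passed the filter on low values and were tested among 14403 genes. The genes were listed by name and role and not by a cut on a measured value, although earlier results of these data were known when the list was made.

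MHC class I molecules display short peptides from a cell's own proteins on its surface, where cytotoxic T cells and natural killer cells read them. The proteasome cuts the proteins, and interferon-induced catalytic subunits can replace the constitutive ones to form the immunoproteasome. The TAP transporter moves the peptides into the endoplasmic reticulum, tapasin helps to load them onto the heavy chain with β2-microglobulin, and Nlrc5 switches on most genes of the pathway together. In a healthy retina neurons and glia are known for low class I levels, while microglia, the resident macrophages of nervous tissue, carry more.

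The study measured RNA in 9 mouse libraries of cells prepared as Müller glia, the main glia of the retina, with 3 libraries in each of 3 groups. All animals of the sorted groups were labelled wild type (WT). Both eyes of the animals labelled OHT, for ocular hypertension, had received 1.2 µL of silicone oil in the anterior chamber, a model of chronic mild pressure elevation, and the sham animals a corneal incision without oil. For each sorted library 4 neural retinas were pooled, dissociated with papain, depleted of dead cells and enriched on magnetic beads with an antibody against GLAST (ACSA-1), a glutamate transporter that retinal astrocytes carry too. The third group was untreated primary culture, grown in serum from C57BL/6J pups of postnatal day 8 to 10 and passaged. For the sorted animals, age, strain and time after injection were not given in the sources used here. Nothing in the labels says that the cultures or pools were prepared independently, so p-values measure the spread between these libraries.

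Depth was 37.8 to 44.5 M (1e6) reads per sham library, 47.1 to 53.6 M per OHT library and 66.3 to 76.7 M per culture. Levels compared across the tables are in ppm, reads per 1e6 reads of the library's total, and 1 read was worth 0.0130 to 0.0264 ppm. The labelled cell type was checked against its markers. In the sorted libraries 11 microglia and macrophage markers together took 11858 to 24017 ppm in sham and 18301 to 18613 ppm in OHT. The 12 Müller glia markers took 3304 to 8011 ppm in sham and 1777 to 3704 ppm in OHT, so the sorted fraction held more marker RNA of microglia than of the labelled cell in every library. In the cultures the Müller glia markers took 2700 to 3553 ppm with Vim and 235 to 399 ppm without it, the microglia and macrophage markers 90.3 to 132 ppm, and 9 mural and fibroblast markers 16219 to 19173 ppm. In such bulk libraries fewer cells of a type and less RNA per cell cannot be told apart.

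Class I genes are known for a shared promoter layout, in which a kappa B site and an interferon element lie upstream of an X and Y module that RFX, CREB, NF-Y and Nlrc5 assemble on. The windows of the heavy chains, the light chain and Tap1 are shown because they carry or lack that layout among genes whose values are set side by side below. They run from 250 bases before to 50 bases after the RefSeq start in build GRCm38.p6, 5′ to 3′ on the gene's strand. H2-K1 lies at chr17:34000298-34000597 on the minus strand, H2-D1 at chr17:35262844-35263143 on the plus strand, B2m at chr2:122147437-122147736 on the plus strand and Tap1 at chr17:34187306-34187605 on the plus strand. Capitals mark matches, on either strand, to the kappa B motif GGGANTCCC (N is any base), the interferon motif GAANNGAAA, the CRE-like core TGACG of the X box, and CCAAT, the Y box.
H2-K1: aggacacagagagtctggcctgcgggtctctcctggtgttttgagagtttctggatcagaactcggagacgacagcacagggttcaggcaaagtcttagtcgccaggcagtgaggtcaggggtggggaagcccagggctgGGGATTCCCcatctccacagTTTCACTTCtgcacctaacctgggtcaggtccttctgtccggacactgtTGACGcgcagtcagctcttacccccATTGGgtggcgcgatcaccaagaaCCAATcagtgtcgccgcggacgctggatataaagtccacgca
H2-D1: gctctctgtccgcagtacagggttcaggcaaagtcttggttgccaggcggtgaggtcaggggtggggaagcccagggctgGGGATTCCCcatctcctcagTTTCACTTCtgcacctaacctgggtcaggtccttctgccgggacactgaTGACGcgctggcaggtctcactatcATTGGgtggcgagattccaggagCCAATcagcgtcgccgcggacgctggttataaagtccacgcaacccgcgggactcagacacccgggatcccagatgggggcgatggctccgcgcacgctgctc
B2m: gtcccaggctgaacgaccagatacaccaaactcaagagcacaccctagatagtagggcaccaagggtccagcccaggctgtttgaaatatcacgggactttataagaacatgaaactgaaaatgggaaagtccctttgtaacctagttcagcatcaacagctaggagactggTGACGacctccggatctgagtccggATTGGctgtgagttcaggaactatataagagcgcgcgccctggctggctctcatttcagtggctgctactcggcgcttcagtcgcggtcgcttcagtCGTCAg
Tap1: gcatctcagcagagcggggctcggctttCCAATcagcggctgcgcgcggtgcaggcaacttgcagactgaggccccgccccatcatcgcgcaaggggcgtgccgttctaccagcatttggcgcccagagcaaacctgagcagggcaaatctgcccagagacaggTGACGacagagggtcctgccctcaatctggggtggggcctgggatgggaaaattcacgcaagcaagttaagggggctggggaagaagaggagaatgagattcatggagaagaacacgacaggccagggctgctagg

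No capital stretch belongs to more than 1 motif. In the H2-K1 window the kappa B motif began 110 bases, the interferon motif 90 bases and the TGACG core 41 bases before the start. In H2-D1 the same 3 motifs began 170, 150 and 101 bases before the start, in the same order. In both, and in B2m with its core 78 bases before the start, TGACG was followed after 20 bases by ATTGG, the reverse complement of CCAAT. That spaced pair was present in 31 of 32851 RefSeq promoter windows of mouse genes (0.0944%). The kappa B motif was present in 252 of them (0.767%), the interferon motif in 7.52%, TGACG in 20.8% and CCAAT in 37.4%. The B2m window held no exact match to the kappa B or interferon letters searched. It does hold gaaactgaaa, whose spacer is longer than GAANNGAAA allows, a form that the search did not cover. The Tap1 window held TGACG and CCAAT but not the spaced pair. Tap1 and Psmb9 are transcribed in opposite directions, and their windows share 275 of 300 bases, so the Psmb9 window held the same 2 matches. The Tapbp window held CCAAT matches only, and the Psmb8 and Psmb10 windows held none of these letters. Windows were found for 8 of the 10 genes, not for Tap2 or Nlrc5. H2-K1 has a second listed start, and its kappa B, interferon and TGACG motifs began 124, 104 and 55 bases before that start. A match is a description of the sequence and not a measured site.

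In OHT against sham, 8 of the 10 genes had a positive log2 difference, with a median of 0.51, against 45.2% of all 14403 genes tested, with a median of -0.12. None passed the adjusted threshold of 0.05 (limma, Benjamini-Hochberg over all genes), where the background was 0% of all genes and the smallest adjusted p of any gene was 0.332. At an unadjusted p under 0.05, 1 of the 10 genes was higher, Psmb8, against 5.37% of all genes higher and 6.3% lower. In Psmb8 and Psmb10, 2 of the 10 genes, every OHT library lay above every sham library, against 9.26% of all genes. No gene of the 10 had every OHT library below every sham library, against 9.18% of all genes. The log2 differences are on log2(normalised count + 1), where a normalised count is the deposited count divided by 1 factor per library. DESeq2 on the recovered reads called 250 genes (1.74%), none of them among the 10, and with edgeR's quasi-likelihood test 0 genes passed, while 1575 had an unadjusted p under 0.05.

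**Figure D1:**
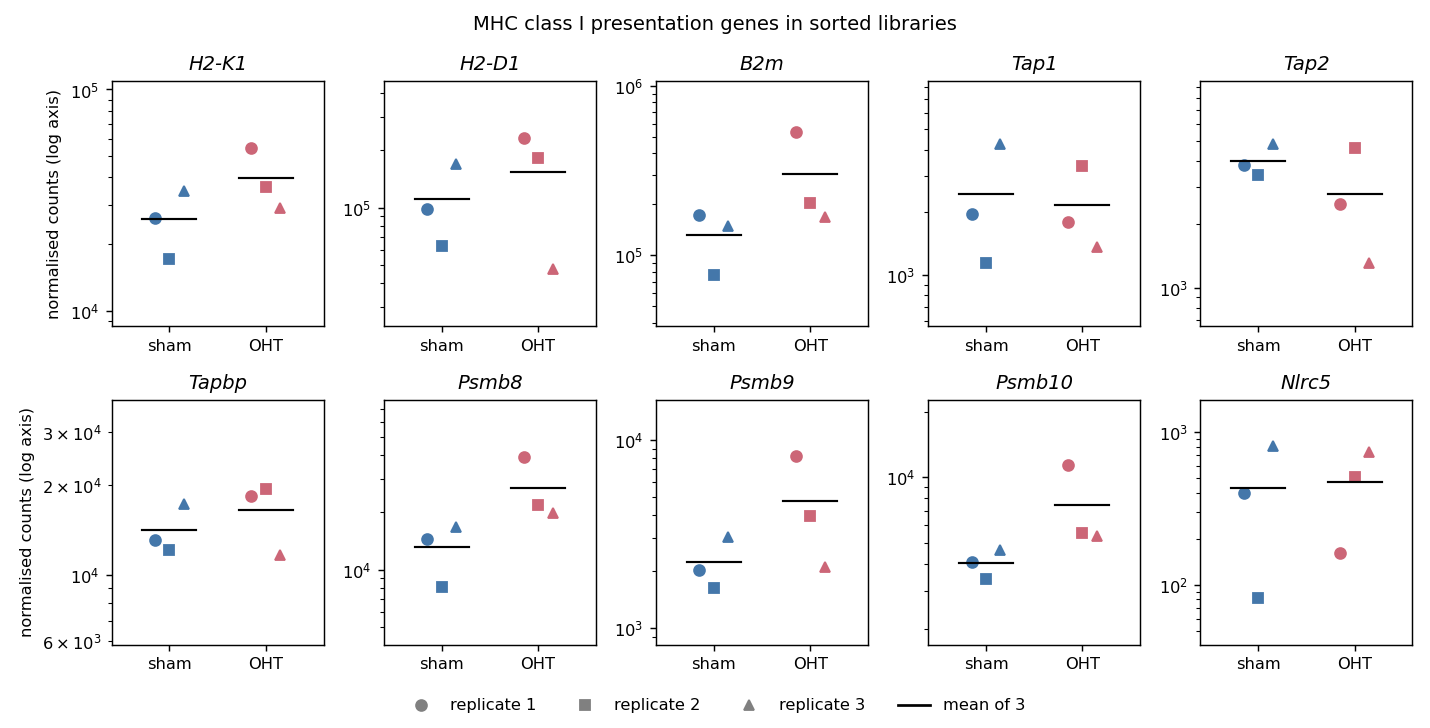
Normalised counts (log axis) of the 10 genes in the 3 sham and 3 OHT libraries, marker shape for the replicate number and a line for the mean of 3. The groups are apart in Psmb8 and Psmb10 only, and OHT replicate 1 is the highest library in 6 panels.

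B2m, the light chain that every classical class I molecule needs, had the largest difference of the 10 genes under the deposited scaling. Its normalised counts were 173388, 76569 and 148420 in sham replicates 1 to 3, and 534625, 203577 and 167458 in OHT replicates 1 to 3. OHT replicate 1 was far above the other libraries, sham replicate 2 was the lowest, and sham replicate 1 lay above OHT replicate 3, so the groups overlapped. Its log2 difference was 1.07 with a standard error (SE) of 0.53 and an adjusted p of 0.461 (limma). Without OHT replicate 1 it was 0.56, below the 0.74 of Psmb8, and over all single libraries left out it ran from 0.56 to 1.40.

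H2-K1, one of the classical heavy chains, had 26321, 17040 and 34702 normalised counts in sham and 54589, 36056 and 29101 in OHT. This gave a log2 difference of 0.63 (SE 0.38), with an adjusted p of 0.522 (limma). OHT replicates 1 and 2 were the highest libraries, sham replicate 2 was the lowest, and sham replicate 3 lay above OHT replicate 3. It was 0.35 without sham replicate 2 and 0.38 without OHT replicate 1. H2-D1, the other heavy chain, had 97896, 62727 and 170210 normalised counts in sham and 230638, 181713 and 47820 in OHT. Here OHT held both the highest and the lowest library, and the log2 difference of 0.31 (SE 0.60, adjusted p 0.836, limma) was smaller than its error. Without OHT replicate 1 it was -0.12 and without sham replicate 2 it was -0.03, so its direction rested on single libraries.

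The 3 chains were also compared within each library, per transcript length, where the library's scaling cancels. H2-D1 stood above H2-K1 by 1.65 ± 0.23 (log2, SD, n = 3) in sham and by 1.33 ± 0.87 in OHT, and in the cultures by 1.94 ± 0.45. The OHT value was carried down by OHT replicate 3 at 0.34, while the other 2 OHT libraries were at 1.70 and 1.96. The log2 ratio of H2-K1 to B2m was -3.24 ± 0.34 in sham and -3.68 ± 0.45 in OHT, an exact two-sided permutation p of 0.3. For H2-D1 to B2m it was -1.59 ± 0.51 and -2.35 ± 0.83, again an exact permutation p of 0.3. In the design of 3 against 3 libraries that test cannot go below 0.1, and after Benjamini-Hochberg adjustment over the 8 ratios computed, the exact permutation p-values ran from 0.48 to 1. About 4.64% of 100-base windows of the H2-D1 transcript also occur in other class I transcripts, chiefly H2-Q1, so some reads cannot be assigned with certainty.

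The transporter subunits had negative differences. Tap1, the first subunit of the transporter, had 1970, 1140 and 4264 normalised counts in sham and 1791, 3324 and 1370 in OHT. Sham replicate 3 was the highest library and sham replicate 2 the lowest, so sham alone spanned the whole range. OHT minus sham was -0.08 on the log2 scale (SE 0.52, adjusted p 0.956, limma). It was 0.42 without sham replicate 3, 0.20 without OHT replicate 3 and 0.01 without OHT replicate 1. Tap2, the second subunit, had 3839, 3435 and 4816 normalised counts in sham and 2490, 4615 and 1314 in OHT. The sham libraries lay close together, OHT replicates 1 and 3 were below all of them, and OHT replicate 2 was among them. The log2 difference was -0.69 (SE 0.45, adjusted p 0.541, limma), the lowest of the 10 genes, and it was -0.24 without OHT replicate 3 and -1.14 without OHT replicate 2. The log2 ratio of Tap2 to Tap1 per length was 0.69 ± 0.71 in sham and 0.08 ± 0.31 in OHT, with an exact permutation p of 0.3.

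Tapbp, which bridges the transporter and the empty heavy chain, had 13024, 12050 and 17284 normalised counts in sham and 18378, 19335 and 11650 in OHT. OHT replicates 1 and 2 were the highest libraries and OHT replicate 3 was the lowest. This gave a log2 difference of 0.20 (SE 0.33, adjusted p 0.804, limma). Quantile normalisation turned it to -0.24. For all of the 10 genes but H2-K1 and H2-D1, the annotation lists genes on the opposite strand that overlap them. Tap1 and Psmb9 overlap each other, B2m overlaps Patl2, Psmb8 and Tap2 overlap Gm20496, and Psmb10 overlaps Gm16156. The library kit does not mark strand, so reads in such overlaps cannot be divided between the genes.

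The immunoproteasome subunits had positive differences in all 3 genes. Psmb8, the chymotrypsin-like subunit that replaces Psmb5, had 14502, 8051 and 16731 normalised counts in sham and 39313, 21894 and 19804 in OHT, or 13095 ± 4508 against 27004 ± 10711 (SD, n = 3). All 3 OHT libraries were above all 3 sham libraries. The log2 difference was 1.04 (SE 0.39, unadjusted p 0.0221, adjusted p 0.370, limma). In ppm of the library's total the groups were also apart, 205 to 393 in sham against 496 to 597 in OHT. Psmb10, the trypsin-like subunit that replaces Psmb7, had 4063, 3394 and 4636 normalised counts in sham and 11416, 5567 and 5362 in OHT. Its groups did not overlap either, and the log2 difference was 0.80 (SE 0.37, unadjusted p 0.0529, adjusted p 0.433, limma). Psmb9, which replaces Psmb6, had 2027, 1632 and 3049 normalised counts in sham and 8234, 3963 and 2116 in OHT. OHT replicate 3 lay among the sham libraries, and the log2 difference was 0.92 (SE 0.49, adjusted p 0.476, limma). Without OHT replicate 1, the highest library of all 3 genes, the differences were 0.74 in Psmb8, 0.45 in Psmb10 and 0.42 in Psmb9.

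The constitutive subunits that these 3 replace had positive differences too. Psmb6 had 9304, 7301 and 11395 normalised counts in sham and 27552, 13373 and 19190 in OHT, with no overlap, and its log2 difference was 1.06 (SE 0.36, adjusted p 0.343, limma). Psmb5 had a log2 difference of 0.60 and Psmb7 of 0.49, with overlapping groups in both, and without OHT replicate 1 they were at 0.15 and 0.14. Within a library, the log2 ratio of Psmb8 to Psmb5 per length was 2.08, 1.56 and 2.61 in sham and 2.22, 2.46 and 2.89 in OHT. The group means of 2.08 ± 0.53 and 2.52 ± 0.34 differed by 0.44, with an exact two-sided permutation p of 0.4. The log2 ratio of Psmb9 to Psmb6 was -2.85 ± 0.16 in sham and -2.99 ± 0.83 in OHT, an exact permutation p of 1. OHT replicate 3 was at -3.94 and the other 2 OHT libraries near -2.5, and without it the difference turned from -0.14 to 0.34. The log2 ratio of Psmb10 to Psmb7 was 0.55 ± 0.15 in sham and 0.86 ± 0.38 in OHT, an exact permutation p of 0.3. In the sorted libraries of both groups, then, Psmb8 and Psmb10 stood above their constitutive counterparts per length and Psmb9 stood below Psmb6, and none of the 3 ratios differed between the groups beyond the spread. About 24.9% of the windows of the Psmb5 transcript also occur in another annotated gene, Gm3375.

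**Figure D2:**
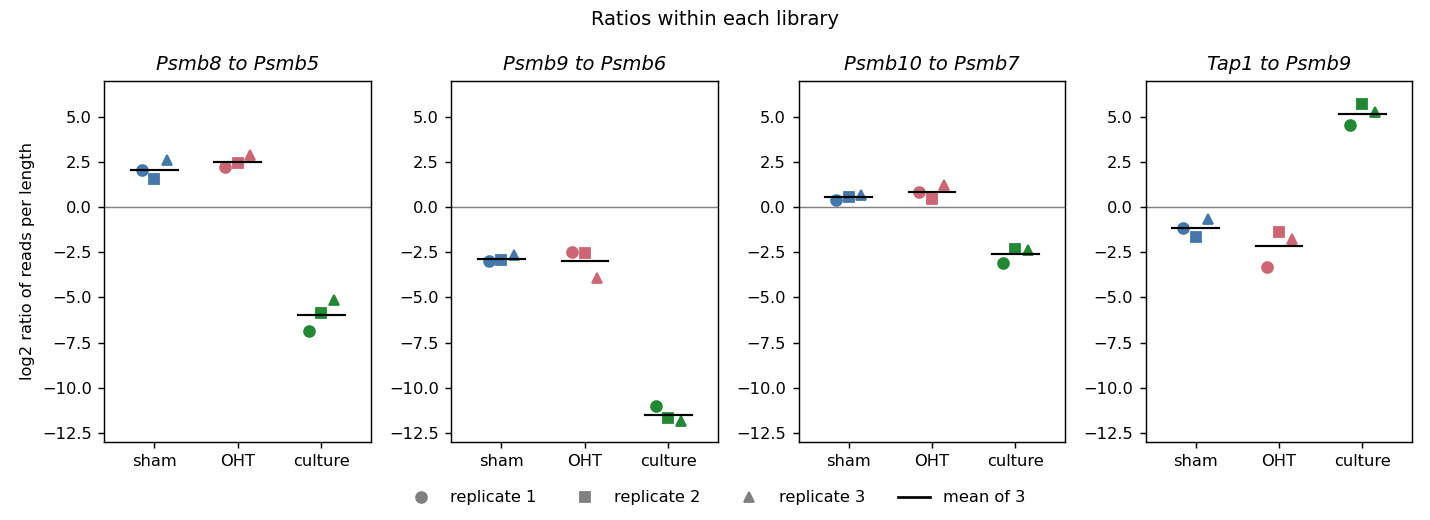
Log2 ratios of reads per transcript length within each of the 9 libraries for 4 gene pairs, with the mean of 3 as a line. Sham and OHT overlap in every panel, and the cultures lie apart from them in all 4, below for the 3 proteasome pairs and above for Tap1 to Psmb9.

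Nlrc5, the transactivator, varied most of the 10 genes across the sham libraries. It had 396, 81.2 and 812 normalised counts in sham, a range of 10.0-fold, and 162, 505 and 741 in OHT, a range of 4.59-fold that H2-D1 passed with 4.82-fold. Sham replicate 3 was the highest library and sham replicate 2 the lowest. The log2 difference was 0.40 (SE 0.90, adjusted p 0.860, limma), and it was -0.53 without sham replicate 2 and -0.06 without OHT replicate 3. Tap1 had the same highest and the same lowest library, and Tap2 the same highest. OHT replicate 1 was the highest library of H2-K1, H2-D1, B2m, Psmb8, Psmb9 and Psmb10 but the fifth of 6 in Nlrc5. As a description over the 6 sorted libraries, the root mean square (RMS) difference between log2 profiles, each centred on its own mean, was 0.229 for H2-K1 and Psmb10, the closest pair of the 10 genes. For Nlrc5 it ran from 0.936 with Tap1, its nearest, to 1.45 with Psmb9, the farthest pair of all. All genes of a library share its scaling and its cell makeup, and marker levels differed between the libraries.

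Over the 11531 genes whose mean reached 100, the profiles nearest to H2-K1 by the same RMS difference were Parp14 (0.108), Svbp (0.108), Epsti1 (0.124) and Timp2 (0.135). Those nearest to Psmb8 were Fth1 (0.0857), Yeats2 (0.101), Ccdc34 (0.117) and Rpl18 (0.127). No gene came as near to Nlrc5, whose closest were Pla2g2d (0.271), Klhl15 (0.383), Kif9 (0.412) and Dnmt3b (0.455).

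Values of other cell types moved with the comparison. Microglia and macrophages are known for more class I than retinal neurons, and 9 of their 11 tested markers had positive log2 differences, with a median of 0.39. Tyrobp was at 1.64, Aif1 at 1.46 and Trem2 at 1.03, while Cx3cr1 was at 0.05, P2ry12 at 0.02 and Tmem119 at -0.46. The median of this list was 0.096 without OHT replicate 1. With each library scaled to the geometric mean of these markers, the median over all genes moved from -0.12 to -0.59. On that scale 5 of the 10 genes were positive, against 25.3% of all genes. Psmb8 was at 0.57 (adjusted p 0.531, limma), B2m at 0.59, Psmb9 at 0.45, Psmb10 at 0.33 and H2-K1 at 0.15. H2-D1 at -0.16, Tapbp at -0.27 and Nlrc5 at -0.07 changed sign, Tap1 was at -0.55 and Tap2 at -1.17. Monocyte and dendritic cell markers, also of class I-rich cells, took 24.8 to 107 ppm in sham and 75.2 to 133 ppm in OHT. Of these, 5 of 8 had positive differences, against 45.2% of all genes, with a median of 0.48. At an unadjusted p under 0.05 (limma), 3 of the 8 were higher, against 5.37% of all genes. So were 4 of the 11 microglia and macrophage markers. Every OHT library lay above every sham library in 1 of the 8 and below in 1, against 9.26% and 9.18% of all genes. Astrocyte markers, of a cell that the GLAST sort also takes, took 28.6 to 1342 ppm in sham and 24.4 to 113 ppm in OHT, with 0 of 6 positive and a median of -1.81. Of the Müller glia markers 1 of 12 was positive, with a median of -0.87. Rod markers took 2562 to 24518 ppm in sham and 870 to 3190 ppm in OHT. Endothelial markers took 234 to 506 ppm against 118 to 210 ppm, without overlap of the sums. Mural and fibroblast markers took 119 to 264 ppm against 10.1 to 55.8 ppm, again without overlap of the sums. Gene by gene, the OHT libraries lay below all sham libraries in 1 of 9 endothelial and 2 of 7 mural and fibroblast genes. Over all genes that share was 9.18%. Lower at an unadjusted p under 0.05 (limma) were 9 of 10 rod, 2 of 12 Müller glia and 1 of 6 astrocyte markers. So were 2 of 9 endothelial and 2 of 7 mural and fibroblast markers, against 6.3% of all genes. The part of these cell types in the class I differences was not tested.

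T cells and natural killer cells, which read class I and express it strongly, left few reads. Their 10 markers in the sorted table took 0 to 10.5 ppm in sham and 0.299 to 2.08 ppm in OHT. Trbc2 and Klrb1c were at 0 in all sham libraries, and Cd3d, Cd8a, Nkg7, Gzmb and Prf1 were at 0 in all OHT libraries. Ifng, the main inducer of the pathway, was at 0 in 4 of the 6 sorted libraries, with a normalised count of 103 in sham replicate 3 and 9.88 in OHT replicate 2. A count of 0 allows up to 3 reads, or 0.0560 to 0.0793 ppm in these libraries, for counting error only.

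**Figure D3:**
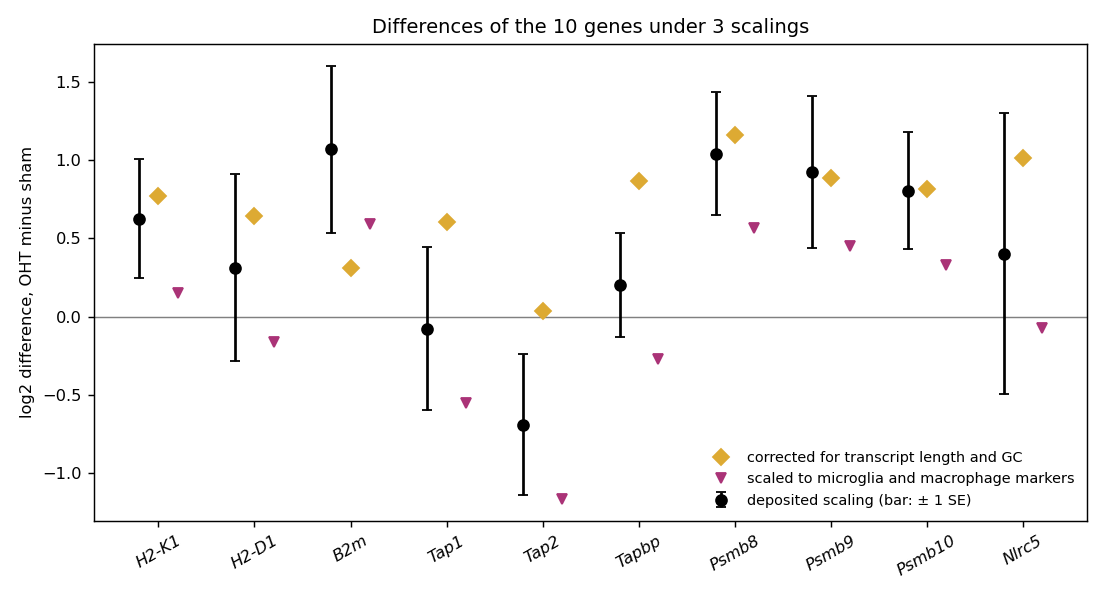
Log2 differences (OHT minus sham) of the 10 genes under the deposited scaling (circles, bars of 1 SE), after scaling to microglia and macrophage markers (triangles) and after correction for transcript length and GC content (diamonds). The immunoproteasome genes, B2m and H2-K1 are above 0 under all 3, and Tap2 is at 0.04 or lower under each.

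Transcript length moved with the comparison as well. Of 813 genes with a longest transcript under 1 kb, 75.8% had a positive log2 difference and the median was 0.78. From 1 to 2 kb the median of 2686 genes was 0.16, from 2 to 3 kb it was -0.14 in 2998 genes, from 3 to 4 kb it was -0.25 in 2537 genes, and in the 4815 genes of 4 kb or more it was -0.31. B2m, at 0.86 kb, lay 1.07 above 0 in a class with a median of 0.78. H2-K1 and the 3 immunoproteasome genes, all between 1 and 2 kb, lay above the median of their class. So did H2-D1, Tapbp and Tap1, between 2 and 3 kb, and Nlrc5, in the class of 4 kb or more. Only Tap2, at 3.44 kb, lay below its own. The gradient was steepest in OHT replicate 1, whose median against the sham mean was 1.49 in the shortest class and -0.70 in the longest. A correction of each library for length and GC content, added after seeing the data, could be made for 96.2% of the tested genes. It gave positive log2 differences in all 10 genes and in 57% of all genes. Psmb8 was then at 1.16, Nlrc5 at 1.01, Psmb9 at 0.88, Tapbp at 0.87, Psmb10 at 0.81, H2-K1 at 0.77, H2-D1 at 0.64, Tap1 at 0.60, B2m at 0.31 and Tap2 at 0.04. None passed the adjusted threshold under it.

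**Figure D4:**
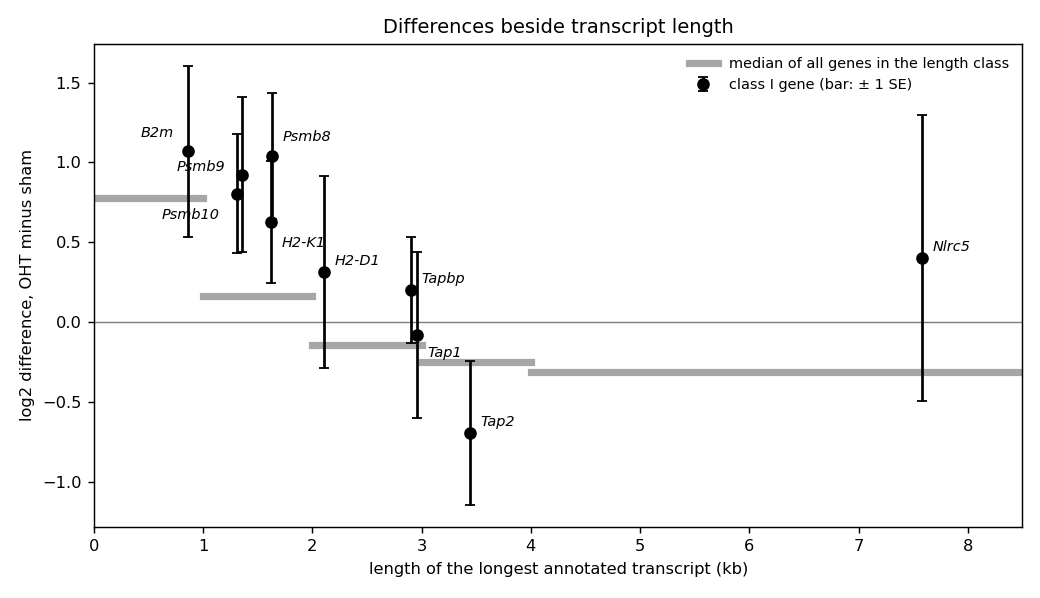
Log2 difference (OHT minus sham, bars of 1 SE) of each of the 10 genes against the length of its longest annotated transcript in kb, with the median of all tested genes of each length class as a grey bar. The class medians run from 0.78 under 1 kb to -0.31 at 4 kb and above.

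The rest of the pathway was taken from 7 lists of 87 genes, of which 77 could be tested. Positive log2 differences were present in 57 of them and negative ones in 20, and the median was 0.50. None passed the adjusted threshold, with a smallest adjusted p of 0.343 (limma). At an unadjusted p under 0.05, 14 of the 77 were higher and 0 lower, and in 21 every OHT library lay above every sham library. Over all genes tested these shares were 5.37% higher, 6.3% lower and 9.26% above all sham. Without OHT replicate 1, 51 of the 77 were positive and the median was 0.24.

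The proteasome made up most of those, with 7 of the 14 in the constitutive core and 4 among its activators and assembly factors. All 14 tested genes of the constitutive core had positive differences, with a median of 0.80, and in 9 of them the groups did not overlap, against 9.26% of all genes. The 7 higher at an unadjusted p under 0.05 stand against 5.37% of all genes. Without OHT replicate 1 all 14 were positive with a median of 0.51. Besides Psmb6, these included the structural subunits Psmb3, with normalised counts of 5361, 5036 and 5251 in sham and 15585, 7288 and 9103 in OHT, and Psmb1, at a log2 difference of 0.97. Psma7, of the outer ring, had a log2 difference of 0.94 (SE 0.34, adjusted p 0.363, limma). Of these 14 transcripts 12 are shorter than 2 kb, in the length classes whose medians lay above 0, and after the length and GC correction all 14 were positive with a median of 0.49. Of 10 activators and assembly factors, 8 had positive differences, with a median of 0.79. Without OHT replicate 1, 8 were positive with a median of 0.38. Here 6 of the 10 transcripts are shorter than 2 kb, and after the length and GC correction 8 were positive with a median of 0.57. Psme1 and Psme2, the interferon-induced activator subunits that open the proteasome's gate, were at 0.79 and 0.87, and the assembly chaperones Pomp and Psmg4 at 1.09 and 1.64.

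Among non-classical class I and class I-like genes, 14 of 17 tested had positive differences, with a median of 0.55. Without OHT replicate 1, 10 of the 17 were positive with a median of 0.31, against 47.5% of all genes positive. Of these 17 transcripts 12 are shorter than 2 kb, and after the length and GC correction 15 were positive with a median of 0.76. H2-M3, which presents formylated peptides, had 3627, 1840 and 3340 normalised counts in sham and 7797, 4230 and 4481 in OHT, with no overlap and a log2 difference of 0.91 (SE 0.39, adjusted p 0.411, limma). H2-T24 at 0.77 and Hfe, a regulator of iron uptake with the class I fold, at 0.55 also had groups that did not overlap. In 4 of the 17 every OHT library lay above every sham library, against 9.26% of all genes, and in 0 below, against 9.18%. H2-M2 had normalised counts of 0, 44.3 and 424 in sham and 1208, 824 and 308 in OHT. Its log2 difference of 4.66 (SE 1.73, adjusted p 0.365, limma) depends on the pseudocount, since sham replicate 1 was at 0, and it was 2.28 without that library.

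Loading and trimming genes were split, with 5 of 9 positive and a median of 0.13. The lectin chaperone Canx was at 0.85 and the peptidase Tpp2 at 0.60, against -1.32 for the peptidase Thop1. These were 0.47, 0.33 and -0.16 without OHT replicate 1. For Uggt1, the glucosyltransferase that checks glycoprotein folding, the log2 difference was -0.68, and its normalised counts of 1538, 1644 and 1631 in sham were all above the 456, 1518 and 1439 in OHT. It was -0.12 without OHT replicate 1. Of the 9 loading and trimming genes, 1 had every OHT library above every sham library, against 9.26% of all genes. Uggt1 was the 1 with every OHT library below, against 9.18%. Of 16 regulators, none with a transcript under 2 kb, 10 were positive with a median of 0.10, and after the length and GC correction 14 were positive with a median of 0.61. Irf2 was the 1 of the 16 with every OHT library above every sham library, near the 9.26% of all genes. It had 2747, 2481 and 2654 normalised counts in sham and 6158, 3550 and 4682 in OHT. Its log2 difference was 0.83 (SE 0.34, adjusted p 0.388, limma). Ciita, the class II relative of Nlrc5, was at 1.72 (SE 0.97), while the kappa B subunit Rela was at -0.73 and the CCAAT-binding subunit Nfyc at -0.72. Rela was at -0.23 without OHT replicate 1, and Nfyc at -0.19 without OHT replicate 3. Of 9 interferon receptors and signalling genes, 5 were positive with a median of 0.03, and after the length and GC correction 7 were positive with a median of 0.59. In 2 of the 9, the receptor chains Ifnar1 at 0.61 and Ifngr1 at 0.55, every OHT library lay above every sham library. Over all genes that share was 9.26%. Jak2 was at 0.54, and the feedback inhibitor Socs1 was at -2.34 (SE 1.33, adjusted p 0.501, limma) and at -0.73 without OHT replicate 3. Of the 9 interferon ligands listed, 3 were in the sorted table and 2 could be tested, Ifnb1 at 1.07 (SE 0.82) and Ifng at -1.09 (SE 2.31).

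In the primary cultures all 10 genes were lower in ppm than in every sorted library, against 18.2% of the 14004 genes compared, while 33.4% of genes were higher in every culture. The tables were normalised separately, so these are levels without a test. The 10 genes together took 0.473% to 0.952% of reads in sham and 0.759% to 1.37% in OHT, but 0.0435% to 0.0718% in the cultures. The size of the gap differed by gene. Psmb9 was at 51.9, 41.5 and 71.7 ppm in sham and at 0.377, 0.238 and 0.235 ppm in the cultures, which is 25, 18 and 18 reads, and the sham mean was 194-fold above the culture mean. Psmb8 was at 371, 205 and 393 ppm in sham and at 2.22, 3.00 and 4.18 ppm in the cultures, a 103-fold gap. For Psmb10 the gap was 3.87-fold, with 104, 86.3 and 109 ppm in sham and 27.8, 24.9 and 24.7 ppm in the cultures.

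The chains showed gaps of 49.9-fold for H2-K1, 41.3-fold for H2-D1 and 10.6-fold for B2m. H2-K1 was at 13.5, 12.4 and 12.7 ppm in the cultures, close together, and B2m at 521, 169 and 245 ppm. The gap was 13.7-fold for Nlrc5 and 9.29-fold for Tap2. Tapbp, at 76.4, 117 and 129 ppm in the cultures, had a gap of 3.24-fold, and Tap1, at 19.5, 27.0 and 19.6 ppm, had the smallest, 2.72-fold. From the OHT mean the Tap1 gap was 2.10-fold. Its separation was narrow, with OHT replicate 1 at 27.2 ppm and sham replicate 2 at 29.0 ppm. Tap1 and Psmb9, whose promoter windows overlap, thus had the smallest and the largest gap. The log2 ratio of Tap1 to Psmb9 per length was -1.15 ± 0.50 in sham and -2.15 ± 1.03 in OHT. It was 5.17 ± 0.57 in the cultures, which held 36.1-fold more Tap1 than Psmb9. The exact two-sided permutation p for OHT against sham was 0.2.

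The constitutive subunits went the other way. Psmb5, at 141, 98.0 and 81.8 ppm, and Psmb7, at 205, 110 and 113 ppm, were higher in every culture than in any sorted library, and Psmb6 overlapped them. Per length, the log2 ratio of Psmb8 to Psmb5 was -5.96 ± 0.85 in the cultures, that of Psmb9 to Psmb6 -11.53 ± 0.44 and that of Psmb10 to Psmb7 -2.58 ± 0.42. Each lay below every sorted library. The cultures also differed from the sorted cells in growth in serum, passage and cell makeup. The age of the sorted animals was not given, so age may differ too, and these cannot be told apart. Microglia and macrophage markers at 90.3 to 132 ppm against 11858 or more in the sorted libraries, and Acta2 at 8134 to 13250 ppm, are the marker values beside this result, and their part in it was not tested.

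**Figure D5:**
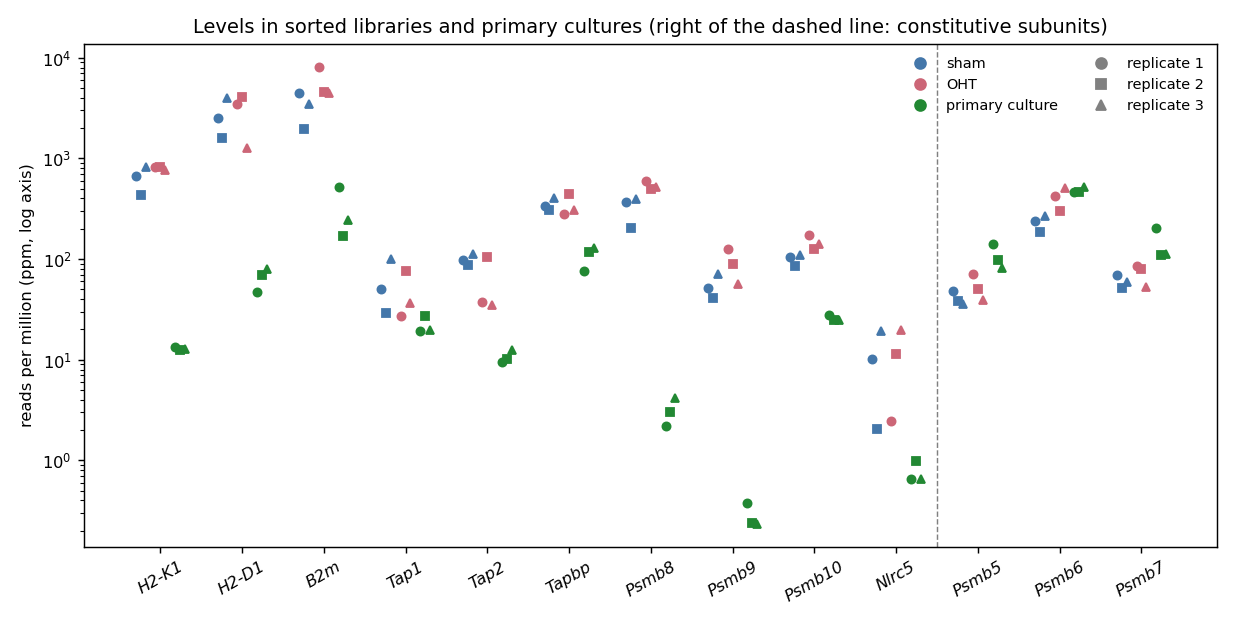
Levels in ppm of the library's total (log axis) for the 10 genes and, right of the dashed line, the constitutive proteasome subunits, in sham, OHT and primary culture libraries, with marker shape for the replicate number. All 10 genes are lower in each culture than in any sorted library, from Tap1 with the smallest gap to Psmb9 with the largest, while Psmb5 and Psmb7 are higher.

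Per length, the order of levels in sham was B2m with 3826 ± 1462 ppm per kb (SD, n = 3), H2-D1 with 1285 ± 578, H2-K1 with 396 ± 119, Psmb8 with 198 ± 63.3, Tapbp with 120 ± 17.8, Psmb10 with 76.1 ± 9.08, Psmb9 with 40.7 ± 11.3, Tap2 with 28.9 ± 3.77, Tap1 with 20.3 ± 12.4 and Nlrc5 with 1.38 ± 1.12. Of the 9 neighbouring pairs in that order, 3 overlapped across their libraries, Psmb8 with Tapbp, Psmb9 with Tap2 and Tap2 with Tap1. The OHT order was the same, with overlap in the pairs Tapbp with Psmb10 and Tap2 with Tap1. In the cultures B2m was again first, at 362 ± 216 ppm per kb, but Tapbp at 37.2 ± 9.57 came next, overlapping H2-D1 at 31.1 ± 7.87. Psmb10 at 19.7 ± 1.31 was above H2-K1 at 7.93 ± 0.35, which overlapped Tap1 at 7.46 ± 1.46. Psmb8 at 1.92 ± 0.61, Psmb9 at 0.209 ± 0.060 and Nlrc5 at 0.100 ± 0.025 closed the order.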

How the data were processed

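RNA was measured in 3 sham, 3 OHT and 3 primary culture libraries, grouped by GEO's labels. Per the labels, cDNA was amplified (SMARTer v4) and sequenced as 150 bp pairs. Per the submitters' processing notes, bcl2fastq 2.20, Trim Galore 0.6.6, FastQC 0.11.9, STAR 2.7.1a and the mm39 build were used. How reads were counted, with which annotation, and the normalization tool: not given in the sources used here. The deposited signal is a gene count divided by 1 factor per library. Dividing by each column's step gave whole reads for 100% of values (tolerance 0.05 reads), although in primary culture replicate 3 the step is too near 1 to be a check. The factors of the sorted table equal DESeq2's.

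Genes with a mean of 10 or more in the sorted table were tested with limma 3.58.1 (R 4.3.3, eBayes with trend, no covariate) on log2(value + 1), which understates changes of low genes. P-values were adjusted by Benjamini-Hochberg over all genes tested, at a threshold of 0.05. edgeR 4.0.16 (quasi-likelihood) and DESeq2 1.42.0 ran on recovered reads. Ratios were compared with exact two-sided permutation tests. Lengths, GC content and shared windows came from GENCODE M21 transcripts and promoters from RefSeq, and neither is on mm39. No replicate pair agreed within sampling noise. The limma fit was tested on simulated data with the spread of the sorted libraries. It recovered 24% of genes changed by 2 on the log2 scale, 55.5% at 3 and 86% at 5. Smaller changes, such as those of the 10 genes, were not simulated.

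Besides the 10 genes, the genes named were the 3 constitutive subunits, up to 4 genes with the smallest p in each pathway list, and the 4 nearest profiles for H2-K1, Psmb8 and Nlrc5. Marker genes given with values were chosen after their values were seen. The members and lists were chosen with earlier results of these data known. Alternatives were other pseudocounts, filters and scalings, limma without trend or with array weights, a replicate block, other tools and leaving out each library.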

Additional observations from a re-analysis of the deposited data

How the results depend on the processing

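The count of genes called in OHT against sham was 0 with limma and 0 to 17 when 1 library was left out, with 12 without sham replicate 1 and 17 without sham replicate 3; DESeq2 called 250. No pairing by replicate number was seen, which cannot show that same-numbered pools were prepared apart. Deviations of same-numbered libraries correlated at 0.0776, -0.0246 and -0.0451, and those of differently numbered libraries at -0.073 to 0.0995. A replicate block called 2 genes. The number of the 10 genes with a positive difference was 5 after scaling to microglia and macrophage markers and 6 to 9 when 1 library was left out. Over 19 alternatives for each of the 10 genes, 177 of 190 values kept their direction, 13 reversed in 5 genes, and the smallest adjusted p was 0.224. Scaled to microglia and macrophage markers, H2-D1 was at -0.16, Tapbp at -0.27 and Nlrc5 at -0.071. Quantile normalisation put Tapbp at -0.24. Corrected for length and GC content, an alternative chosen after seeing the data, Tap1 was at 0.60, Tap2 at 0.036 and Rela at 0.06. Leaving out 1 library gave ranges of -0.12 to 1.01 for H2-D1, -0.53 to 0.42 for Tap1, -0.53 to 1.13 for Nlrc5 and -0.38 to 0.34 for the ratio of Psmb9 to Psmb6. The cause of these shifts was not tested. Of 530 values for 28 other named genes, 529 kept their direction. For the gap between sham and culture, 50 alternative values gave no reversal. With 3 libraries a group, the exact permutation test cannot go below 0.1.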
